A study of Mus musculus with 18 samples.

Results

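The comparison concerned the obstructed kidney with and without TIMP2. It took 6 of the series' 18 arrays: 3 from TIMP2-/- mice and 3 from wild-type (WT) mice, all of the C57BL/6 strain. In each of these mice the right proximal ureter had been tied off with a pair of ligatures (unilateral ureteral obstruction, UUO), and the kidney on that side was taken 3 days later. The arrays were chosen by their labels alone, and arrays are called by group and label number, such as WT UUO 2. The other 12 arrays were WT and TIMP2-/- kidneys after a sham operation, in which the ureter was not tied, and TIMP3-/- kidneys after sham or UUO, 3 in each group. They lent their spread to the fit and gave values to set side by side. The age and sex of the mice, whether genotypes were littermates, and which part of Timp2 was deleted are facts the sources used here do not give. The samples are labelled as biological replicates. RNA came from kidney tissue, so fewer cells of a type and less RNA per cell cannot be told apart.

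TIMP2 belongs to the tissue inhibitors of metalloproteinases, small secreted proteins that block the active site of matrix metalloproteinases (MMPs) and so slow the breakdown of extracellular matrix. TIMP2 has a further role: bound to the membrane protease MMP14, it holds the inactive form of MMP2 for cleavage into the active enzyme. In a kidney with a blocked ureter, tubule cells are stretched and injured, leukocytes enter, and fibroblasts lay down collagen. The comparison asks how the transcripts of such a kidney differ when TIMP2 is missing.

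Values were intensities on a linear scale, 1 per probe set and array. Differences are log2 of TIMP2-/- UUO over WT UUO, with the standard error (SE) of a linear model (limma) fitted to all 18 arrays. A probe set passed at a Benjamini-Hochberg adjusted p under 0.05 over 22626 non-control probe sets. A gene with several probe sets was read off the one with the highest mean. The 25th percentile of an array lay between 56.8 and 64.2, and a value under 56.8 is called dim. With 3 arrays against 3, an exact permutation test cannot give a p below 0.1. On the control probe sets for RNA quality, log2 of the 3' over the 5' signal lay between -0.14 and -0.0086 for Gapdh and between 0.31 and 0.60 for beta-actin on the 18 arrays.

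One array stood apart most. WT UUO 2 correlated with the other 5 arrays at r = 0.958 to 0.977 across probe sets, whereas the pairs without it lay between 0.981 and 0.997. Within the TIMP2-/- UUO group, array 3 correlated with arrays 1 and 2 at 0.9848 and 0.9845, and arrays 1 and 2 with each other at 0.9966. List medians are not given without TIMP2-/- UUO 3. On WT UUO 2 the summed intensity of 22 hepatocyte transcripts was 149320, compared with 8237 for WT UUO 1 or 3 at the lowest, 20449 at the highest, and 13286 to 15214 on the TIMP2-/- UUO arrays. Alb, the gene of the liver's albumin, stood at 72.7, 28106 and 254 on WT UUO 1 to 3 and at 133, 933 and 198 on TIMP2-/- UUO 1 to 3. Apoa1, which encodes a liver apolipoprotein, stood at 8823 on WT UUO 2 and at 104 to 180.4 on the other 5. The part of these transcripts in the kidney differences was not tested, and the main results that move with this array are given with and without it.

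In the obstructed kidney 11 probe sets passed between the genotypes, 6 higher and 5 lower in TIMP2-/-, which is 0.0486% of those tested. Timp2 was lower on 5 probe sets. BC018473, a gene annotated as a long non-coding RNA, was higher by 3.68 ± 0.24, and Wdfy1, which encodes an endosomal protein with a lipid-binding FYVE domain, by 2.45 ± 0.33 (log2 ± SE, n = 3 arrays per group, limma). Prkca, the gene of protein kinase C alpha, and Iapp, the gene of islet amyloid polypeptide, each passed on 1 probe set. So did 1 probe set without a single gene symbol, meaning that the annotation gives it none or several. Read by 1 probe set per gene, Timp2, BC018473 and Wdfy1 passed of 12393 genes (0.0242%). No gene of the inhibitor, protease, matrix, fibroblast, injury, tubule or immune lists passed other than Timp2.

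Timp2 comes first because its transcript checks the genotype labels. The 250 bases before its annotated start (RefSeq, GRCm38.p6, minus strand, chr11:118355412-118355661) are shown. Where transcription starts in these kidneys was not measured. The place of these bases relative to the deletion is not known here. Capitals mark the GC box letters GGGCGG, searched on both strands.

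Timp2: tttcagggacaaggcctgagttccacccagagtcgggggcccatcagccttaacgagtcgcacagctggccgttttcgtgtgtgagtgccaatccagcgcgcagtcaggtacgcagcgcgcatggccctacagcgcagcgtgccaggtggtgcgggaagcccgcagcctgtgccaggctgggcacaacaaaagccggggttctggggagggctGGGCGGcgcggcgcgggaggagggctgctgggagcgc

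These letters occurred 1 time, in forward orientation, and 68.0% of the bases were G or C. Of 32851 RefSeq promoter stretches of the same length, 32.7% held GGGCGG on either strand, and the median share of G or C was 52.4%. The corresponding stretch of Prkca held the letters on both strands and that of Iapp on neither. A match is a description of the letters only.

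On its brightest probe set (1433662_s_at), Timp2 had intensities of 4205, 4689 and 3521 on WT UUO 1 to 3 and 832, 897 and 742 on TIMP2-/- UUO 1 to 3. The groups lay far apart, and every TIMP2-/- kidney still gave a signal well above the dim range. The means were 4138 ± 587 in WT and 824 ± 77.8 in TIMP2-/- (SD, n = 3). The log2 difference was -2.32 ± 0.16 (limma, adjusted p = 1.45e-06), so WT kidneys were 5.0-fold higher. Without WT UUO 2 it was -2.23.

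The other Timp2 probe sets were lower in the same kidneys, with 1 exception. Probe set 1454677_at had 3646, 4259 and 3236 in WT UUO against 1038, 998 and 1002 in TIMP2-/- UUO, a difference of -1.87 ± 0.18. Probe set 1460287_at had 2874, 4617 and 2423 against 680.2, 655 and 809, a difference of -2.16 ± 0.26. On these brighter probe sets the WT kidneys spread more than the TIMP2-/- kidneys. Probe set 1450040_at had 1000, 1004 and 879.5 against 320.3, 272 and 368 (-1.60 ± 0.14), and 1420924_at had 518, 490.1 and 332 against 118, 134 and 144 (-1.74 ± 0.25). All 4 passed. The exception, 1437081_at, was dim throughout, with 29.1 to 33.9 in WT and 26.6 to 32.4 in TIMP2-/-, and did not pass (-0.12 ± 0.16).

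**Figure D1:**
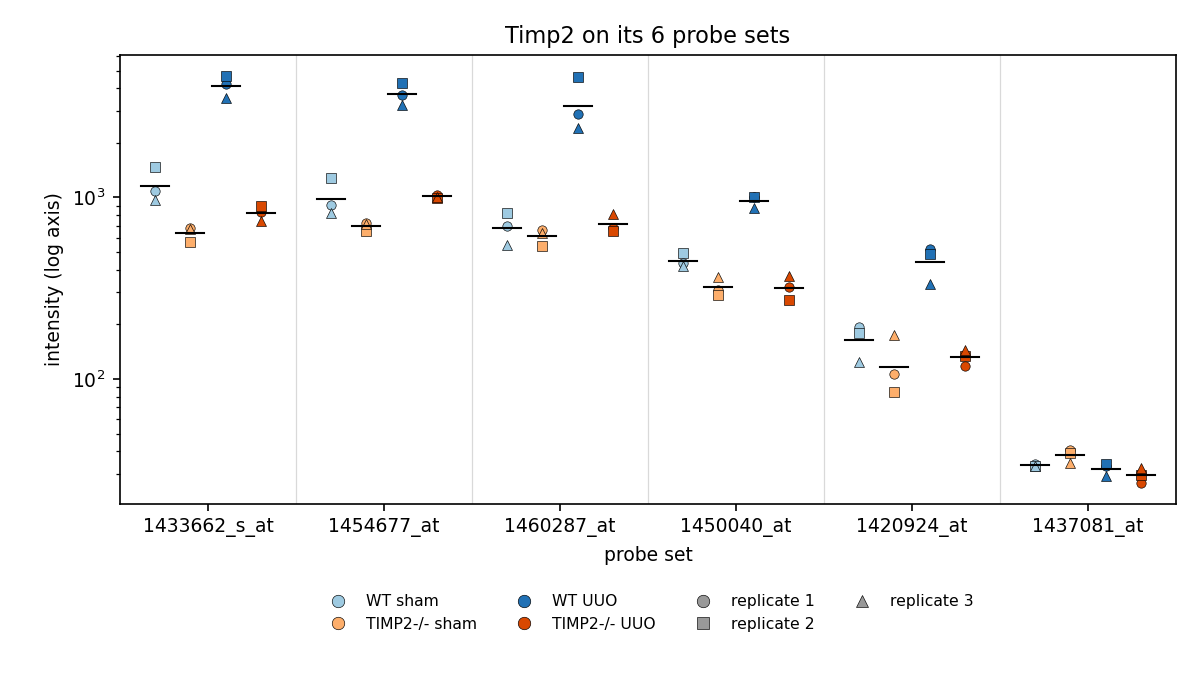
Intensity (log axis) of the 6 Timp2 probe sets in WT and TIMP2-/- kidneys after sham and after UUO; each point is 1 array, its shape gives the label number, and the bar is the mean of log2 values. On 5 probe sets the 3 WT UUO arrays lie above the other 3 groups, and on 1437081_at all 12 values lie between 26.6 and 40.8.

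After sham the genotypes lay closer. The brightest Timp2 probe set had 1091, 1475 and 971 in WT sham and 681, 571 and 668 in TIMP2-/- sham. The groups did not overlap, but the difference of -0.86 ± 0.16 did not pass (limma, adjusted p = 0.143). Probe sets 1454677_at (-0.50) and 1450040_at (-0.48) did not overlap either. On 1460287_at the sham groups overlapped, with 698, 819 and 546 in WT and 662, 544 and 636 in TIMP2-/- (-0.15 ± 0.26), as they did on 1420924_at (-0.49 ± 0.25). No Timp2 probe set passed after sham. The genotype difference on the brightest probe set after UUO minus that after sham was -1.46 ± 0.22; it had the smallest adjusted p of this contrast, 0.191, and did not pass. In TIMP3-/- UUO kidneys Timp2 stood at 5304, 4785 and 4242.

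BC018473 had intensities of 20.2, 21.4 and 20.2 in WT UUO and 257, 273 and 265 in TIMP2-/- UUO on probe set 1427451_a_at. The WT values were dim and the TIMP2-/- values were not, so the size of the difference, 3.68 ± 0.24 or 12.8-fold (limma, adjusted p = 1.45e-06), is inexact. The same probe set had 32.1, 32.9 and 26.7 in WT sham and 274, 521 and 551 in TIMP2-/- sham, a difference of 3.81 ± 0.24 that passed as well (adjusted p = 8.74e-07). The transcript was set apart by genotype with and without the ligature. Its second probe set, 1427453_at, was dim on all 6 arrays, at 12.8 to 22.2, and did not pass (0.23 ± 0.18). In TIMP3-/- UUO kidneys 1427451_a_at was dim, at 15.0 to 19.8.

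Wdfy1 was higher in TIMP2-/- on each of its 3 probe sets, and 2 of them passed. Probe set 1424749_at had 94.2, 107 and 75.5 in WT UUO against 496, 521 and 484 in TIMP2-/- UUO, a difference of 2.46 ± 0.14 (limma, adjusted p = 3.52e-07). The brightest, 1437358_at, had 150.5, 178 and 94.0 against 779.5, 943 and 559, a difference of 2.45 ± 0.33 (adjusted p = 0.00629). Neither probe set overlapped between the genotypes. The third, 1453426_a_at, had 112, 109 and 141 against 178, 206 and 279. It did not overlap either, but its difference of 0.86 ± 0.19 did not pass (adjusted p = 0.328). After sham, 1424749_at had 99.6, 98.8 and 120.1 in WT and 610, 576 and 733 in TIMP2-/-, a difference of 2.59 ± 0.14 that passed (adjusted p = 1.62e-07). On 1437358_at the sham difference was 1.39 ± 0.33 and did not pass (adjusted p = 0.143).

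**Figure D2:**
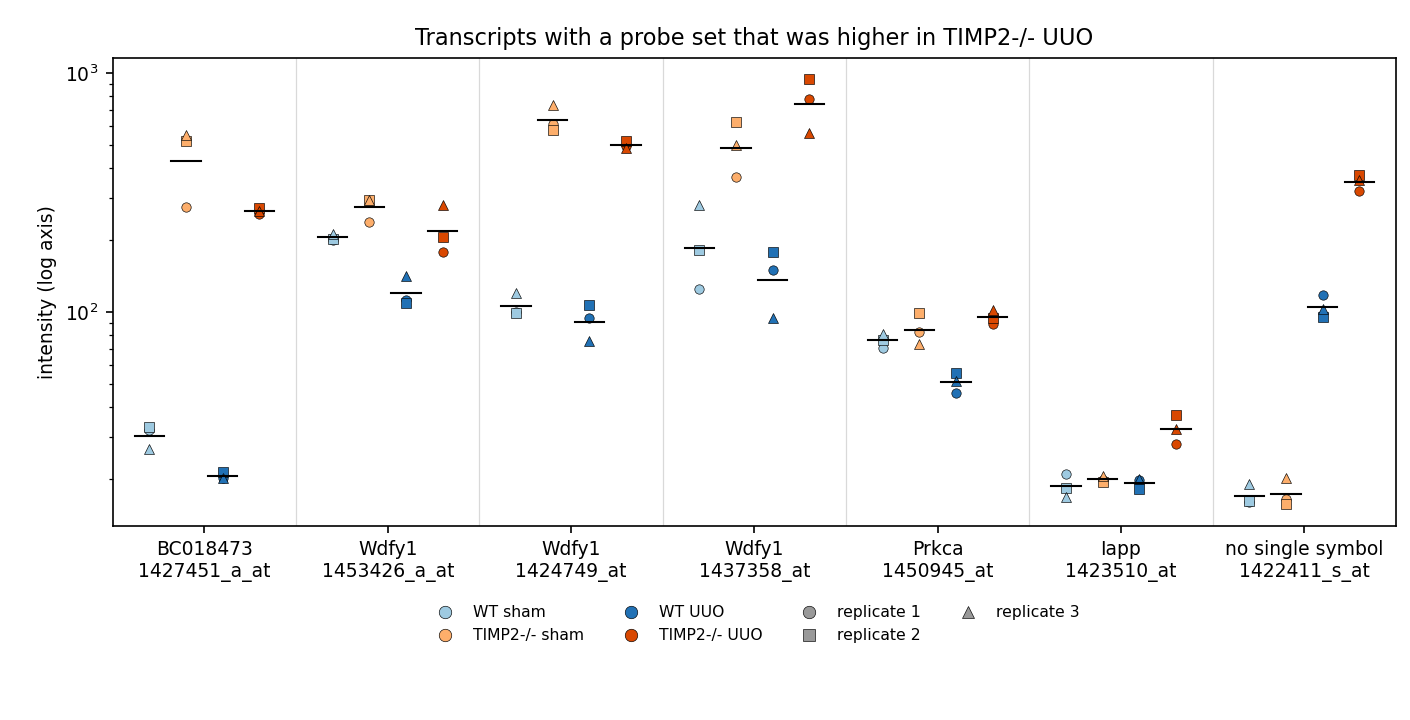
Intensity (log axis) of BC018473 (1427451_a_at), 3 Wdfy1 probe sets, Prkca, Iapp and 1 probe set without a single gene symbol in 4 groups. Each point is 1 array, its shape gives the label number, and the bar is the mean of log2 values. BC018473 and Wdfy1 do not overlap between the genotypes after sham or after UUO, while the genotypes lie together after sham for Prkca, Iapp and 1422411_s_at; the Wdfy1 probe set 1453426_a_at did not pass.

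Prkca on probe set 1450945_at had 46.0, 55.8 and 51.6 in WT UUO and 89.2, 94.4 and 102 in TIMP2-/- UUO. The groups did not overlap and the WT values were dim. The difference was 0.90 ± 0.13 (limma, adjusted p = 0.0107), and 0.97 without WT UUO 2 (adjusted p = 0.0276). The sham kidneys, at 71.0 to 81.2 in WT and 73.4 to 98.6 in TIMP2-/-, overlapped. The gene's brighter probe set, 1427562_a_at, had 58.7, 63.4 and 79.5 against 93.7, 96.8 and 131 and did not pass (0.67 ± 0.16, adjusted p = 0.542).

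Iapp on probe set 1423510_at had 19.8, 18.2 and 20.04 in WT UUO and 28.0, 37.1 and 32.6 in TIMP2-/- UUO, all of them dim, with a difference of 0.74 ± 0.12 (limma, adjusted p = 0.0327). Its call was lost in 11 of 17 other settings, among them leaving out WT UUO 2 (adjusted p = 0.205) and using the label number as a block (adjusted p = 0.0746). Probe set 1423509_a_at had 50.3, 34.1 and 53.4 against 71.6, 158 and 79.0, where TIMP2-/- UUO 2 stood high. The groups did not overlap and the difference did not pass (1.10 ± 0.25, adjusted p = 0.439). Probe set 1437323_a_at, with 27.4, 15.1 and 29.2 against 50.5, 91.9 and 45.5, did not overlap or pass either (1.38 ± 0.26, adjusted p = 0.111). The fourth, 1456004_x_at, overlapped, with 29.7, 22.6 and 29.2 against 27.8, 30.0 and 34.5 (0.18 ± 0.14; 0.055 without WT UUO 2).

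The probe set without a single gene symbol, 1422411_s_at, had 117, 95.04 and 103 in WT UUO and 321, 375 and 356 in TIMP2-/- UUO. Its difference was 1.74 ± 0.25 (limma, adjusted p = 0.0107, and 0.0835 without WT UUO 2). Both sham groups were dim, at 15.7 to 20.3. TIMP3-/- UUO kidneys had 232, 541 and 448, a difference from the same WT arrays of 1.87 ± 0.25 (adjusted p = 0.0024).

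Timp2, BC018473 and Prkca lie on chromosome 11, Wdfy1 on chromosome 1 and Iapp on chromosome 6. By the gene order of the RefSeq table (GRCm38.p6), BC018473 is 49 genes and Prkca 263 genes from Timp2. Of the 20 genes on either side of Timp2, 18 were measured and none passed in limma, while 2 had an unadjusted p under 0.05. Their differences ran from -0.69 to 0.50 with a median of 0.075. The lowest belonged to Usp36, the next gene, which encodes a deubiquitinase: it had 360.1, 376 and 384 in WT UUO against 217, 212 and 268 in TIMP2-/- UUO, without overlap (-0.69 ± 0.14, adjusted p = 0.22), and differed by -0.068 after sham. Usp36 was chosen after its value was seen.

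The precision bounds what the comparison could show. The median SE was 0.177, which gives a 95% interval of 0.377 to either side. For 10896 genes (87.9%) the interval lay within 1 log2 unit of no difference. An unadjusted p under 0.05 was reached by 418 genes (3.37%). The 3 values of a group lay wholly above or below those of the other for 1026 genes (8.28%), 603 higher and 423 lower in TIMP2-/-. A positive difference was found for 60.3% of genes with all arrays and for 6592 of 12393 without WT UUO 2. The counts of positive or negative list members below stand against these shares.

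The calls depended on single arrays to a differing degree. Without WT UUO 2, 8 probe sets passed (0.0354%), 4 higher and 4 lower, all among the 11; Iapp, 1422411_s_at and the Timp2 probe set 1420924_at did not. Without TIMP2-/- UUO 2, 6 passed, and without TIMP2-/- UUO 3, 8 passed. Without WT UUO 3, 21 passed, 15 of them higher, and 11 of these had not passed with all arrays. Of these 11, Klrd1, a natural killer cell receptor, was the 1 that was lower. Among the higher ones were Slc17a3, a urate and anion transporter of the proximal tubule, with 1.29 (adjusted p = 0.0305) against 0.87 with all arrays, and Slc22a30, an organic anion transporter, with 1.70 (adjusted p = 0.00541) against 1.12. With the label number as a block in a fit of the 6 arrays, 4 passed: BC018473, both Wdfy1 probe sets and the brightest Timp2 probe set. Array weights estimated in limma gave 7860 calls, but that estimate did not converge. It set WT UUO 1 at 66.3, WT UUO 2 at 0.298 and TIMP2-/- UUO 3 at 0.287. Estimated gene by gene, the weights gave 1829 calls. These weights were 5.71 for WT UUO 1, 0.380 for WT UUO 2, 0.524 for WT UUO 3 and 0.346 for TIMP2-/- UUO 3. With either set of weights the WT UUO mean thus rested mostly on WT UUO 1. The 11 probe sets passed with either set of weights. So did Havcr1, Mmp2, Col1a1 and Lcn2, which did not pass with all arrays weighted alike, at adjusted p = 2.72e-04, 0.0293, 0.0217 and 0.0365 gene by gene.

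**Figure D3:**
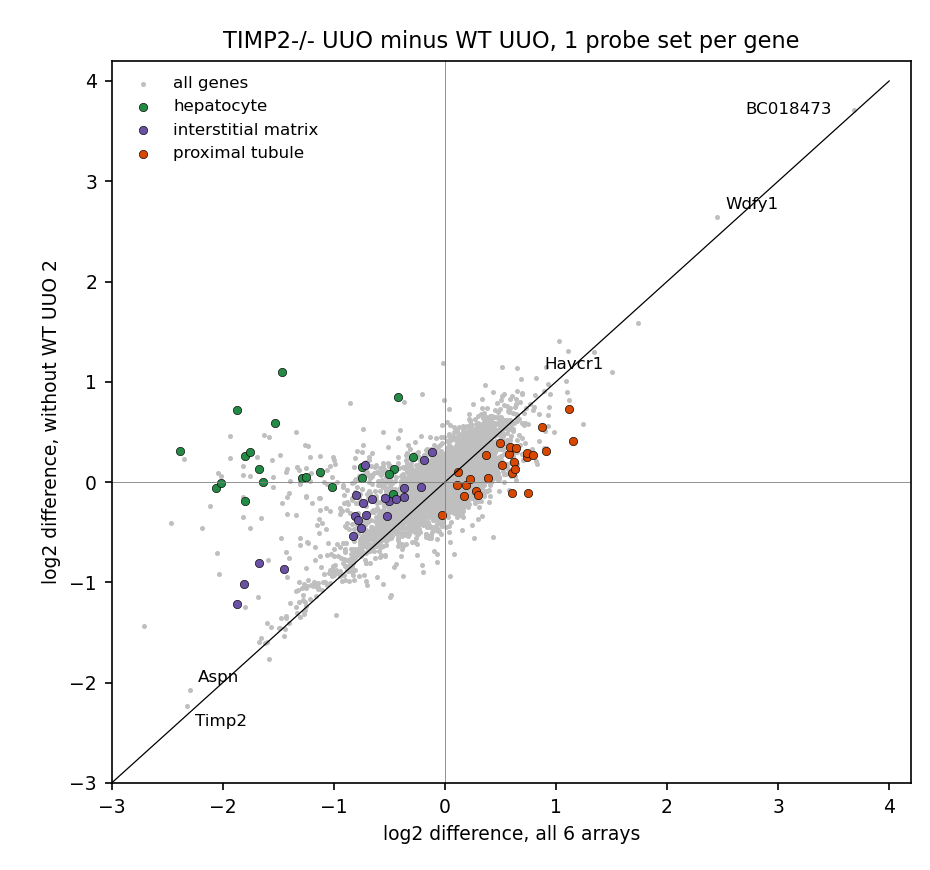
Log2 difference, TIMP2-/- UUO minus WT UUO, with all 6 arrays (x axis) and without WT UUO 2 (y axis); each point is 1 gene, the genes of 3 lists are coloured, and the line marks equal values. BC018473, Wdfy1 and Timp2 lie near the line, while the hepatocyte genes have a median of -1.38 with all arrays and 0.12 without WT UUO 2.

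None of the other inhibitors passed. Timp1, an inhibitor that injured tissue makes in large amounts, had 2796, 10929 and 2287 in WT UUO and 2679, 2518 and 3597 in TIMP2-/- UUO. WT UUO 2 alone stood high, and the difference of -0.51 ± 0.52 was 0.20 without it. Timp3, which stays bound to the matrix, had 5274, 5056 and 4260 against 4130, 4585 and 3484, overlapping values that differed by -0.26 ± 0.21. Timp4 had 45.3, 47.4 and 42.7 against 46.2, 45.9 and 65.2, nearly all dim (0.20 ± 0.13). Reck, an MMP inhibitor anchored in the cell membrane, had 486, 468 and 597 against 458, 502 and 466 (-0.11 ± 0.16).

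The proteases that TIMP2 binds did not pass with all arrays weighted alike. Mmp2, the gelatinase whose activation involves TIMP2, had 2117, 4212 and 1457 in WT UUO and 1300, 1354 and 1443 in TIMP2-/- UUO. The groups did not overlap, by a narrow margin at WT UUO 3, and the difference was -0.78 ± 0.37 (limma, adjusted p = 0.9997), or -0.36 without WT UUO 2. On the other Mmp2 probe set the groups overlapped (-0.79 ± 0.40). Mmp14, the membrane protease, had 3387, 8614 and 2137 against 2242, 2368 and 2370, which overlapped (-0.77 ± 0.40; -0.21 without WT UUO 2). Mmp9, a gelatinase made by leukocytes, had 114, 1090 and 104 against 119, 106 and 221; its difference of -0.74 ± 0.83 was 0.37 without WT UUO 2. Of 14 measured metalloproteinases none passed and 1 had an unadjusted p under 0.05 (limma). Their median was -0.38, against 0.042 over all genes, and -0.029 against 0.012 without WT UUO 2.

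The 15 ADAM, ADAMTS and meprin genes had a median of -0.12 with all arrays and 0.11 without WT UUO 2. The 9 genes of the plasminogen activator system had a median of -0.011 with 4 positive, and 0.16 with all 9 positive without WT UUO 2. Both medians thus turned, and no gene of either list passed. Mep1b, a subunit of the brush border protease meprin, had 541, 282 and 1601 in WT UUO against 970, 1131 and 1484 in TIMP2-/- UUO, which overlapped (0.91 ± 0.44; 0.34 without WT UUO 2). Plau, the urokinase that activates plasminogen, had 4550, 3142 and 3793 against 5523, 5367 and 3911 (0.37 ± 0.24).

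**Figure D4:**
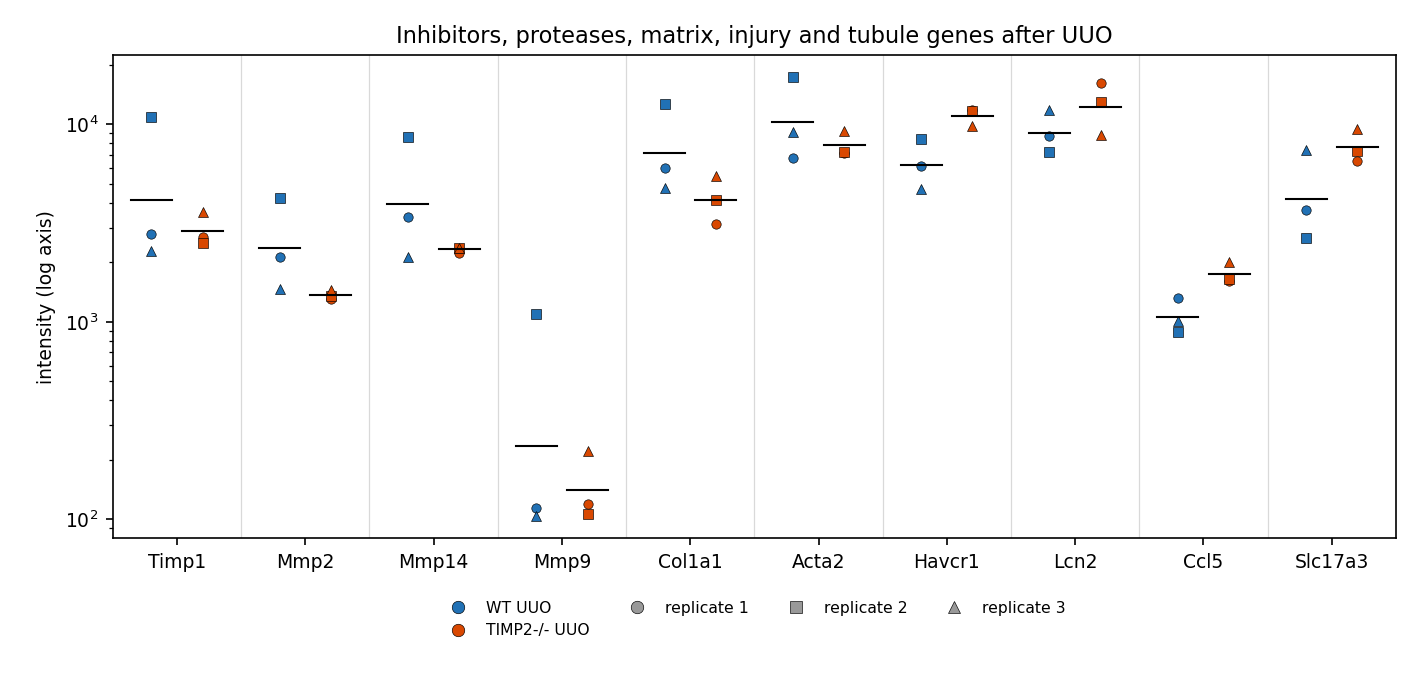
Intensity (log axis) of 10 genes in WT UUO and TIMP2-/- UUO; each point is 1 array, its shape gives the label number, and the bar is the mean of log2 values. WT UUO 2 (blue square) is the highest of the 6 arrays for Timp1, Mmp2, Mmp14, Mmp9, Col1a1 and Acta2 and the lowest for Slc17a3, Ccl5 and Lcn2; none of the 10 genes passed with all arrays weighted alike.

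Interstitial matrix genes lay lower without TIMP2, and most of that shift went with 1 WT array. All 22 measured genes had a negative difference, with a median of -0.71, but none passed in limma; 5 had an unadjusted p under 0.05. WT UUO 2 was the highest of the 6 arrays for all of them, against 20.5% of all genes. Without it the median was -0.20, 19 of the genes stayed negative, and 0 had an unadjusted p under 0.05. Their summed intensity was 219195 on WT UUO 2, 99984 and 123695 on the other WT UUO arrays, and 91499.9 to 110603 on TIMP2-/- UUO.

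Col1a1, a chain of type I collagen, had 6035, 12625 and 4747 in WT UUO and 3130, 4141 and 5446 in TIMP2-/- UUO, which overlapped (-0.79 ± 0.38; -0.37 without WT UUO 2). Lox, the enzyme that starts the cross-linking of collagen, had 1068, 4342 and 497 against 476, 491 and 307 on its brightest probe set, without overlap (-1.67 ± 0.69; -0.81). Its other probe sets overlapped between the genotypes. The brighter of these had 195, 796 and 157.4 against 139.3, 186.2 and 155.7 (-0.87 ± 0.63). The remaining one was dim throughout (-0.077 ± 0.18). Eln, the elastin gene, had 667, 2202 and 631 against 250.4, 267 and 678 (-1.45 ± 0.54; -0.86). WT UUO 2 was the highest array for Col1a1, Lox and Eln on their brightest probe sets. Col6a1, a chain of type VI collagen, had 2853, 4705 and 2361 against 1390, 1577 and 2601 (-0.82 ± 0.34; -0.54). The 21 basement membrane genes had a median of -0.031 (0.037 without WT UUO 2), and for 20 of them the 95% interval lay within 1 log2 unit.

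Among 16 fibroblast and myofibroblast markers none passed in limma and 2 had an unadjusted p under 0.05; the median was -0.36, and 0.0071 without WT UUO 2. Acta2, the smooth muscle actin of myofibroblasts, had 6735, 17323 and 9151 in WT UUO and 7140, 7252 and 9257 in TIMP2-/- UUO, which overlapped (-0.39 ± 0.30; -0.0045 without WT UUO 2). Aspn, a small proteoglycan of fibroblasts, had 146, 117 and 37.4 against 17.6, 16.6 and 18.5, without overlap. Its difference of -2.29 ± 0.69 was -2.08 without WT UUO 2, but it did not pass (limma, adjusted p = 0.9997) and its TIMP2-/- values were dim.

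None of 20 TGF-β pathway genes passed in limma and 2 had an unadjusted p under 0.05 (median -0.14; -0.065 without WT UUO 2). Tgfb1, the ligand, had 263, 366 and 270.4 in WT UUO and 269, 255 and 282 in TIMP2-/- UUO (-0.14 ± 0.25; 0.0085 without WT UUO 2). Ccn2, a target gene whose product promotes matrix deposition, had 5236, 11390 and 5166 against 4358, 4665 and 3616, without overlap (-0.69 ± 0.27; -0.31).

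**Figure D5:**
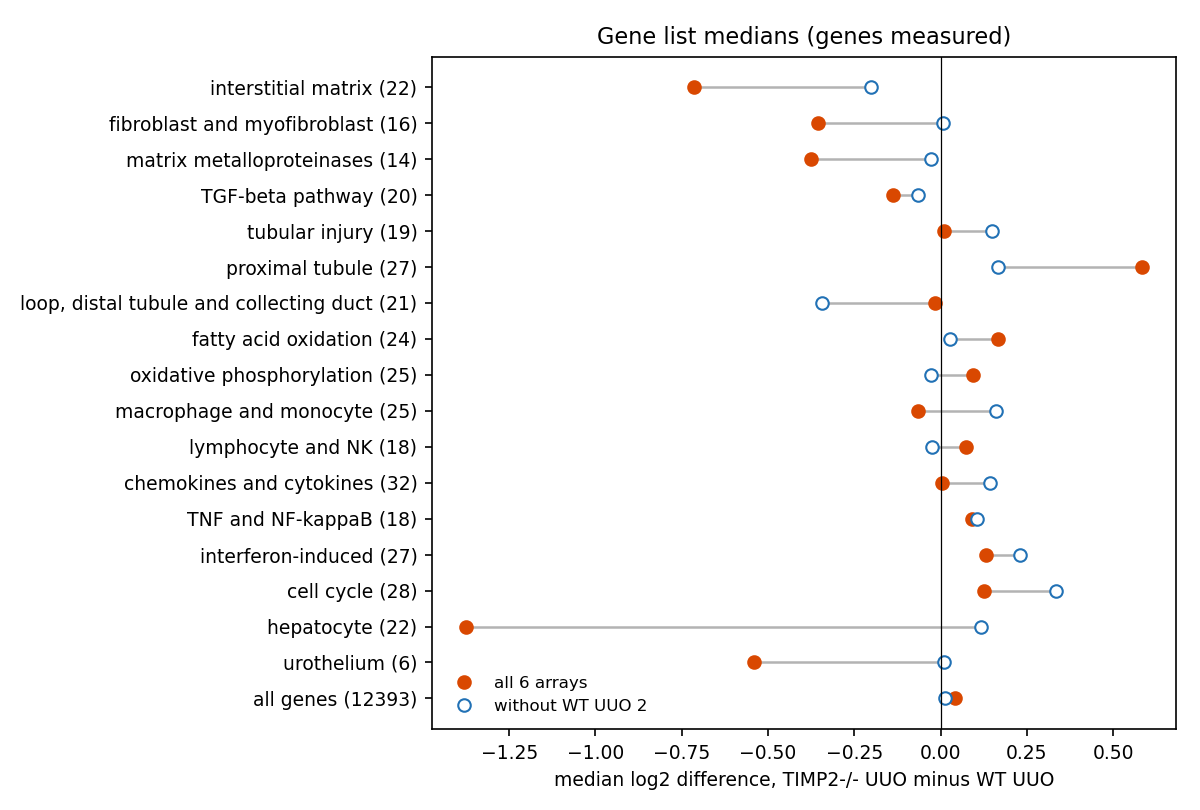
Median log2 difference, TIMP2-/- UUO minus WT UUO, of 17 gene lists and of all genes, with all 6 arrays (filled) and without WT UUO 2 (open); the number of genes measured stands beside each name. The hepatocyte, interstitial matrix, urothelium, metalloproteinase and fibroblast medians lie at -0.36 or below with all arrays and at -0.20 or above without WT UUO 2.

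Havcr1 had the smallest p among the injury genes. It encodes KIM-1, a receptor on injured proximal tubule cells, and had 6175, 8439 and 4698 in WT UUO and 11806, 11723 and 9817 in TIMP2-/- UUO. Every TIMP2-/- kidney was above every WT kidney. The difference was 0.82 ± 0.21, with a 95% interval of 0.38 to 1.26, and did not pass (limma, adjusted p = 0.595). Without WT UUO 2 it was 1.04 (adjusted p = 0.205). After sham the values were 139 to 149.6 in WT and 125 to 155 in TIMP2-/-.

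Lcn2, which encodes NGAL, another injury marker, had 8735, 7198 and 11825 in WT UUO against 16152, 13002 and 8829 in TIMP2-/- UUO, which overlapped (0.44 ± 0.34). Krt20, a keratin found in injured tubules, had 358, 647 and 268 against 659.6, 475 and 596 (0.53 ± 0.26). Of 19 injury genes none passed in limma and 1 had an unadjusted p under 0.05; the median was 0.0100, and 0.15 without WT UUO 2.

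Proximal tubule genes lay higher in TIMP2-/- UUO, again most of all against 1 array. Of 27 measured markers 26 were positive, against 60.3% of all genes, and the median was 0.58. None passed in limma and 9 had an unadjusted p under 0.05. WT UUO 2 was the lowest of the 6 arrays for 92.6% of them, against 36.7% of all genes. Without it the median was 0.17 and 19 were positive, as were 6592 of all 12393 genes. Their summed intensity was 114787 on WT UUO 2, 159166 and 253554 on the other WT UUO arrays, and 195524 to 268765 on TIMP2-/- UUO.

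Slc17a3 had 3702, 2648 and 7406 in WT UUO and 6481, 7288 and 9434 in TIMP2-/- UUO (0.87 ± 0.28; 0.54 without WT UUO 2). Slc22a30 had 426, 324 and 1236 against 1058, 1221 and 1349 (1.12 ± 0.35; 0.73). For both, WT UUO 3 lay within the TIMP2-/- range and the other WT arrays lay below it. Slc17a1, a phosphate and anion transporter, had 6669, 4297 and 9786 against 8980, 9727 and 10752 (0.58 ± 0.22).

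The 21 genes of the loop, distal tubule and collecting duct had a median of -0.016, and -0.34 with 18 negative without WT UUO 2; none passed. Aqp3, a water channel of the collecting duct, had 1287, 1345 and 2132 in WT UUO against 698, 770.4 and 1568 in TIMP2-/- UUO, which overlapped (-0.71 ± 0.26; -0.81 without WT UUO 2). The 24 fatty acid oxidation genes had a median of 0.17 (0.028 without WT UUO 2), and the 25 oxidative phosphorylation genes one of 0.094 (-0.027), with none passing. Medians were -0.044 for 8 podocyte genes, -0.16 (-0.061 without WT UUO 2) for 14 endothelial genes and 0.12 for 19 antioxidant and NRF2 target genes, again with none passing.

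No leukocyte gene passed with all arrays. The 25 macrophage and monocyte markers had a median of -0.064. Without WT UUO 2 it was 0.16 with 23 positive, where 6592 of all 12393 genes were. Itgax, the CD11c integrin of dendritic cells and macrophages, had 389, 393 and 308 in WT UUO and 483, 486 and 580 in TIMP2-/- UUO, without overlap (0.51 ± 0.18; limma, adjusted p = 0.9997). Ccl5, a chemokine that draws T cells and monocytes, had 1325, 888 and 1014 against 1612, 1652 and 2001, without overlap (0.72 ± 0.25). Klrd1, the CD94 receptor of natural killer cells, had 195, 196 and 71.0 against 65.7, 56.1 and 47.2, without overlap (-1.32 ± 0.36, adjusted p = 0.828), and its sham difference was -0.76. Without WT UUO 3 it passed (-1.81, adjusted p = 0.0446). S100a8, an alarmin of neutrophils, had 192, 2126 and 123 against 86.0, 178 and 154, so that WT UUO 2 stood apart here too.

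The medians with all arrays and without WT UUO 2 were 0.073 and -0.026 for 18 lymphocyte and NK genes, -0.19 and 0.077 for 11 neutrophil genes and -0.11 and 0.063 for 14 complement genes, so that all 3 turned. They were 0.0029 and 0.14 for 32 chemokines and cytokines, of which 16 and 24 were positive, and 0.19 and 0.13 for 8 MHC class II genes. None of these genes passed with all arrays or without WT UUO 2. Tnf, an inflammatory cytokine, had 127, 130.4 and 133 in WT UUO against 129, 134 and 168 in TIMP2-/- UUO (0.13 ± 0.12, 95% interval -0.13 to 0.40). Of 18 TNF and NF-κB genes none passed (median 0.091). Traf1, an adaptor of TNF receptors, had 205, 186 and 196 against 229, 251 and 262, without overlap (0.34 ± 0.13).

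Of 27 interferon-induced genes 25 were positive, where 60.3% of all genes were; the median was 0.13, and 0.23 without WT UUO 2. None passed in limma and 2 had an unadjusted p under 0.05. Ifi35, one of them, had 739, 751 and 842 against 1031, 972 and 1108, without overlap (0.42 ± 0.18), and a sham difference of 0.61. The 28 cell cycle genes had a median of 0.12, and 0.34 without WT UUO 2, the 23 apoptosis genes one of 0.035 and the 18 immediate early genes one of -0.11, which was 0.035 without WT UUO 2. Casp8, the initiator caspase of death receptors, had 629, 968 and 711 against 1092, 1044 and 874 (0.40 ± 0.16). None of these passed.

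Markers of neighbouring or foreign tissue were read from the same arrays. The 6 urothelium genes had a median of -0.54 (0.011 without WT UUO 2) and summed to 3744 on WT UUO 2, to 1583 and 1909.6 on the other WT UUO arrays and to 1114 to 2366 on TIMP2-/- UUO. The 8 adipocyte genes summed to 34424 on WT UUO 2, to 9728 and 21007 on the other WT UUO arrays and to 15836 to 18245 on TIMP2-/- UUO; their median of -0.12 was 0.28 without WT UUO 2. On both lists WT UUO 2 was again the highest array. Medians were -0.19 for 4 red cell genes, -0.025 for 6 adrenal cortex genes, 0.046 for 11 skeletal muscle genes and 0.12 for 9 exocrine pancreas genes. The median was 0.080 for 4 sex-linked genes, which are not tissue markers. That list pools Xist with Y-linked genes, so its median does not compare the sexes. None of these genes passed, nor did any hepatocyte gene. The part of such tissue in the matrix and tubule values was not tested beyond leaving out WT UUO 2.

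With and without WT UUO 2, 61 of 12393 genes differed by over 1 log2 unit, 8 higher and 53 lower in TIMP2-/-. They were picked by that size, so what follows is a description. Besides the transcripts above, the higher ones included Retnla, a secreted marker of alternatively activated macrophages, with 176, 124 and 166 in WT UUO and 705, 508 and 377 in TIMP2-/- UUO (1.74 ± 0.32; limma, adjusted p = 0.111). Akr1c18, a progesterone-degrading reductase, had 338, 368 and 485 against 1065, 1171 and 784 (1.34 ± 0.33). Neither gene overlapped between the genotypes.

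The 53 lower genes had a median sham difference of -1.53, against 0.14 over all genes. The sham difference was below -1 log2 unit for 38, and none of the sham differences of the 53 passed in limma. WT UUO 3 was the lowest WT UUO array for 51, and TIMP2-/- UUO 3 was the lowest of all 6 arrays for 44. No share over all genes is given for these counts, so how unusual they are cannot be read from them. The genes were picked as lower in TIMP2-/- UUO, so that an array of this group was the lowest is partly built in. The median SE of the 53 was 0.654, against 0.177 over all probe sets. Sp3, a transcription factor that binds GC boxes, had 437, 395 and 234 in WT UUO against 179, 116 and 62.2 in TIMP2-/- UUO (-1.65 ± 0.70; -2.08 after sham). In 8 of the 53 the sham difference lay within 0.5 log2 units. Among the 8 were Aspn and the matrix genes Postn, with 999, 3341 and 408 against 348, 284 and 321 (-1.81 ± 0.97), and Lum, with 1637, 4128 and 660.4 against 416, 285 and 763 (-1.87 ± 0.86).

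Set beside the sham kidneys, few probe sets passed in both, though those that passed after sham were all higher in TIMP2-/- after UUO too. An unadjusted p under 0.05 was more frequent after sham, with 5848 of 22626 probe sets, against 770 after UUO (limma). The median genotype difference over all genes was 0.14 after sham and 0.042 after UUO. After sham 5 probe sets passed between TIMP2-/- and WT (0.0221%), all higher in TIMP2-/-, and 2 of these passed after UUO too: BC018473 (1427451_a_at) and Wdfy1 (1424749_at). The other 3 were a probe set of Myl4, an atrial myosin light chain, and 2 without a single gene symbol. These 2, 1425583_at and 1425502_x_at, were dim in all WT and TIMP2-/- kidneys. Their sham differences were 1.43 ± 0.17 and 1.07 ± 0.16. After UUO they were 0.74 ± 0.17 and 0.48 ± 0.16, without overlap and without passing. The Myl4 probe set 1422580_at had 72.2, 66.3 and 74.0 in WT sham and 164, 143 and 182 in TIMP2-/- sham (1.197 ± 0.16). After UUO it had 75.0, 72.0 and 79.8 against 93.1, 112 and 130, without overlap and without passing (0.55 ± 0.16). The brighter Myl4 probe set, 1457126_at, did not pass after sham (0.32 ± 0.15, limma, adjusted p = 0.188). After UUO its groups overlapped (0.17 ± 0.15).

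For the difference between the genotype effects after UUO and after sham, no probe set passed (0%), while 2015 (8.91%) had an unadjusted p under 0.05 (limma). For BC018473 that difference was -0.13 ± 0.34, and for Wdfy1 it was -0.13 ± 0.20 on 1424749_at and 1.06 ± 0.47 on 1437358_at. For Prkca (1450945_at) it was 0.75 ± 0.19 and for Havcr1 0.85 ± 0.29.

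TIMP3-/- UUO kidneys share their WT controls with the comparison, so both are only set side by side. Against WT UUO, 160 probe sets passed in TIMP3-/- (0.707%), 122 higher and 38 lower, and 2203 without WT UUO 2. The TIMP3-/- difference was 0.21 ± 0.16 for Timp2, -0.23 ± 0.24 for BC018473, 0.99 ± 0.33 for Wdfy1 and 0.46 ± 0.21 for Havcr1, with adjusted p-values of 0.446, 0.609, 0.139 and 0.224 in that order (limma). Without WT UUO 2, Havcr1 passed in TIMP3-/- (adjusted p = 0.048), as did the Wdfy1 probe set 1424749_at (adjusted p = 0.0218, from 0.0981 with all arrays).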

How the data were processed

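RNA of the ipsilateral kidney was measured on 18 Affymetrix Mouse430A_2 arrays, 3 in each of 6 groups, with an RNA integrity number above 7 per the labels' protocols. The deposited table holds 1 intensity per probe set and array on a linear scale. RMA is named in the submitters' processing notes, with its version and the step back to linear values not given in the sources used here. A depth does not apply to arrays, and their number limits the precision.

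From the deposited intensities, log2 was taken without further normalization, and 64 control probe sets were left out. A model of the 6 group means was fitted to all 18 arrays with limma 3.58.1 in R 4.3.3 (12 residual and 3.28 prior degrees of freedom). P-values were Benjamini-Hochberg adjusted over 22626 probe sets. Of these, 20380 carried 1 gene symbol in the platform annotation, 691 several and 1555 none; a gene was named from a probe set with 1 symbol only. The script was tested on simulated data.

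The members, gene lists and tests were chosen with earlier results of these data known. Named genes were the inhibitors, proteases and injury genes at issue, the called genes, and from each list up to 3 members with the smallest p; Usp36, Retnla, Akr1c18, Sp3, Postn, Lum and Myl4 were added after their values were seen. Lists held 629 genes, of which 560 were measured and 36 had an unadjusted p under 0.05. As a check of pairing by label number, deviations from the group means correlated at 0.18, 0.299 and 0.479 between same-numbered UUO arrays and at -0.199, -0.225 and -0.579 between sham arrays. Every UUO pair was above 0.1, so the block is given where it changed a call. Alternatives were other normalizations, a pseudocount, filters, blocks, array weights and leaving out arrays.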

Additional observations from a re-analysis of the deposited data

Results flagged for a closer look

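Each read off its probe set with the highest mean, Mmp2, Il7r and Ndufs1 had opposite genotype differences in the obstructed and the sham kidney. On these probe sets the values of the genotypes were apart in both. Mmp2, the gelatinase, had 2117, 4212 and 1457 in WT UUO against 1300, 1354 and 1443 in TIMP2-/- UUO, and 185, 187 and 118 in WT sham against 198, 199.6 and 241 in TIMP2-/- sham. Its genotype difference after UUO minus that after sham was -1.20 ± 0.52 on the log2 scale. Il7r, the interleukin-7 receptor of lymphocytes, had 37.6, 62.0 and 35.5 against 30.4, 29.3 and 34.1 after UUO and 28.0, 23.9 and 30.4 against 34.4, 34.9 and 35.9 after sham, with a difference of -0.84 ± 0.28; most of these values are dim. Ndufs1, a subunit of respiratory complex I, had 1114, 1150 and 1532 against 1683, 1908 and 1734 after UUO and 3259, 3379 and 4412 against 2614, 2694 and 1960 after sham, with a difference of 1.11 ± 0.30. The interaction was tested over all probe sets in limma and did not pass for any of them (adjusted p = 0.551 for each). Arrays were left out 1 at a time for the counts of calls. Of the genes in this paragraph, only Mmp2 is given here without an array. Without WT UUO 2 the Mmp2 difference after UUO shrank to -0.36. The separation did not hold on the other probe set of Mmp2 or that of Il7r. For Mmp2 it had 1503, 2990 and 1039 in WT UUO against 831.6, 926.8 and 1184 in TIMP2-/- UUO, which overlapped. After sham it overlapped too, with 163.6, 120.6 and 90.52 against 131.4, 173.5 and 182.9. The other Il7r probe set was dim in all WT and TIMP2-/- kidneys and overlapped after UUO and after sham.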

How the results depend on the processing

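Under the alternatives tried, the brightest Timp2 probe set, BC018473 and Wdfy1 (1424749_at) kept their direction and passed in all 18 settings each. Calls were lost for Iapp in 11 of 17, Timp2 1420924_at in 7 of 18, Prkca in 5 of 18, 1422411_s_at in 4 of 17, and in 2 or fewer for the other Timp2 probe sets and Wdfy1 1437358_at. Between TIMP2-/- UUO and WT UUO, a fit of only the arrays compared called 7, 1 probe set per gene 3, array weights 7860 and gene-by-gene weights 1829, the last chosen after seeing the data because the first estimate did not converge. Leaving out 1 array gave 6 to 21. With the replicate block 11 were called, 10 of them shared, so that Iapp was lost and 1 was gained; it called 5 for sham, 4 of them shared, 0 for the difference of effects, and 230 for TIMP3-/- UUO, 153 of them shared. With the block in a fit of the 6 arrays, also added after seeing the data, 4 were called. For the sham kidneys the count was 2 with only the arrays compared, 3 without WT UUO 2, WT sham 3 and TIMP3-/- UUO 2, 3 without dim probe sets, 3 without suffixed ones, 1 with 1 probe set per gene, 3271 and 2750 with the weights, and 2 to 10 leaving out 1 array. For the difference of the genotype effects it was 1 with only the arrays compared, 4398 and 1767 with the weights, and 0 to 3 leaving out 1 array. For TIMP3-/- UUO it was 5 with only the arrays compared, 812 without those 3 arrays, 49 with 1 probe set per gene, 12194 and 6246 with the weights, and 35 to 2485 leaving out 1 array. Calls gained among the genes followed through every alternative were Mmp2, Col1a1, Havcr1 and Lcn2 with both kinds of weights, and Timp3 (adjusted p = 0.00526) and Mmp14 (adjusted p = 0.00362) with the weights that did not converge (limma). Directions turned for Timp1 (0.20), Mmp9 (0.37) and Tgfb1 (0.0085) without WT UUO 2, alone or with the other 2 arrays, and with array weights for Mmp9 (0.057), Tgfb1 (0.014) and Acta2 (0.098). Leaving out 1 array gave -0.93 to 0.20 for Timp1, -1.32 to 0.37 for Mmp9 and -0.23 to 0.0085 for Tgfb1. The cause was not tested. Probe sets near the dim limit give inexact sizes.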
